A study of Mus musculus with 3 samples.

Results

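Cytosolic ribosomal protein genes encode the protein part of the ribosome that translates nuclear mRNAs, and here they are the genes whose symbol is Rpl or Rps with a number, plus Rplp0, Rplp1, Rplp2 and Rpsa. Kinases of the Rps6k family and pseudogenes were left out. A probe set, the group of short oligonucleotides on the array that reports 1 transcript, counted as a member only where the platform annotation gave it exactly 1 such symbol. This found 105 probe sets of 49 genes (23 with Rps symbols and 26 with Rpl symbols), out of 45037 probe sets and 18193 genes. Another 110 probe sets name a ribosomal protein gene together with other symbols and were kept apart.

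RNA was taken from the genital tubercle, from which the penis or clitoris develops, of 3 mouse embryos at embryonic day 14 (Theiler stage 22), with 1 array per embryo and no pooling. FVB/N females had been mated to males carrying the SMAA/EYFP transgene, a fluorescent reporter of smooth muscle actin by which the tissue was dissected, and all 3 samples are labelled transgenic and male. They differ in 1 label, the landmark used for staging: fingers could be seen in replicate 3, whereas the footplate was indented in replicates 1 and 2. The labels do not say whether the embryos shared a litter.

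The male label does not hold in the data for replicate 3. The signal of Xist, the RNA that coats the silenced X in females, was 61883 in replicate 3, against 8.05 and 118 in replicates 1 and 2, and 3 of 3 measured Y-linked genes were above background only in replicates 1 and 2. Replicate 3 is therefore a library labelled male whose label is in doubt. Detection counts and some pooled signals and SDs are given with and without it, while single-gene values and list comparisons are given only with it. Of the genes that define the tubercle, 6 of 7 were above background in 3 of 3 samples, Hoxa13 being the exception. Marker genes of other tissues differed between the samples. The summed signal of 7 liver genes was 9260.5 in replicate 3, against 113802 and 52302.5 in replicates 1 and 2, and that of 9 skeletal muscle genes was 3024, against 25140 and 7387. For 7 erythroid genes the sums were 81700 in replicate 3, against 86184 and 99552, most of it from the embryonic globin Hbb-y. Without Hbb-y, left out after its values were seen, the sums were 3978 in replicate 3, against 26331 and 12663, so their sum was lowest in replicate 3 as well.

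The ribosome has a small subunit, which binds mRNA and reads its codons, and a large subunit, which joins amino acids and carries the stalk that recruits elongation factors. Most of its proteins are present in equal numbers, and their genes are transcribed at high rates and in a coordinated way in growing cells. Their mRNAs begin with a short stretch of pyrimidines, the terminal oligopyrimidine (TOP) tract, through which their translation follows growth signals. Several members are known from mouse mutants with altered body patterning or pigmentation, so the family is of interest in an embryonic outgrowth.

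Nearly all members were detected. Background was set in each sample from probe sets of sensory receptor genes, and each gene was read from whichever of its probe sets was brightest on average. Signals are given as deposited, while differences, folds and log2 SDs were taken after the samples were aligned, which subtracted -0.10, 0.12 and -0.02 on the log2 scale from replicates 1, 2 and 3. Of the 49 genes, 46 (93.9%) were above background in 3 of 3 samples, where 60.5% of all genes were. By probe set it was 93 of 105 (88.6%), where 48% of all probe sets were. The same 46 genes and 93 probe sets count when replicate 3 is left out. The 46 genes had a median signal of 36056 (34076 over all 49), where the median of all genes above background was 2197. Signal depends on the probes as well as on the transcript, so it gives no order of abundance among genes. Members filled 10 of the 100 brightest probe sets in replicate 3, against 12 and 15 in replicates 1 and 2. Because detection needs a high enough signal in each sample, counts below refer to these 46 genes and not to all members.

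The 3 genes outside this count differed in how far they fell short. Rps16, a core protein of the small subunit, was represented by 1 probe set that read 7.22, 3.84 and 3.0 in replicates 1, 2 and 3. That probe set lay far below background in each sample. Rpl3l, which is known as the form of Rpl3 of heart and skeletal muscle, read 35.9, 15.2 and 11 and was above background in no sample. Rpl39l, an autosomal copy of the X-linked Rpl39, read 134, 340 and 308. It passed in replicates 2 and 3, while replicate 1 was just under its background of 135.8. Just above the limit was Rps27, a zinc finger protein of the small subunit, with 149, 371 and 248.

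Among the brightest members the samples lay close together. Rps7, a small subunit protein whose mutants in mice have skeletal and pigment defects, had 75766 in replicate 3, against 67348 and 70253 in replicates 1 and 2, a mean of 71122 ± 4276 (SD, n = 3). Replicate 3 was the highest here, which few members share. Rps4x, the X-linked form of a small subunit protein, had 66386 in replicate 3, against 64202 and 77116, with the smallest SD of all members on the log2 scale after the samples were aligned (0.04). Rps3a1 averaged 68499 ± 11650, Rps20 67611 ± 7600, Rps29 67367 ± 9115 and Rps28 66453 ± 8308 (SD, n = 3). These 6 are the members with the brightest probe sets, and their samples lay within a narrow span. Rps2 and Rps3, which line the channel where mRNA enters, had SDs of 0.05 and 0.10 on the aligned log2 scale. In the large subunit Rpl7, Rpl8 and Rpl19 (0.07 each) were about as close.

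Over the 46 genes the median SD was 0.231 (log2 scale, n = 3), beside 0.330 over all genes. Spread shrank as signal rose, for members and for other genes alike, as the plot of spread against level shows. Members were therefore split into 3 bands by level, and other genes of the same span were set beside each. In the bright band (16 members, mean signals from 50892 to 71122) the median SD was 0.112, against 0.120 for 58 other genes. In the middle band (15 members, 23562 to 50113) it was 0.280, against 0.244 for 435 other genes. In the dim band (15 members, 256 to 19578) it was 0.494, against 0.339 for 10234 other genes. The levels there matched only in span, since the median signal was 6135 for members and 2004 for the other genes. How members compared with other genes of their level depended on the sample left out. Over the middle and bright bands together (31 members and 498 other genes) the median SD was 0.164 for members, against 0.227 for the others. Without replicate 3 it was 0.0879, against 0.259, and without replicate 2 it was 0.161, against 0.127. Without replicate 3 the median SD of all 46 genes was 0.116, while that of all genes was 0.326.

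**Figure D1:**
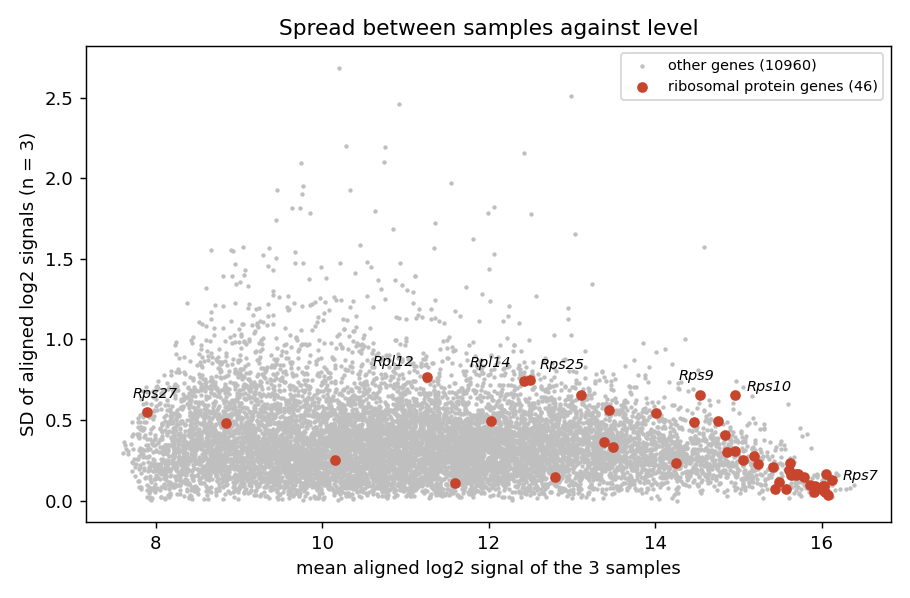
SD of aligned log2 signals over the 3 samples (vertical axis) against the mean aligned log2 signal (horizontal axis), with 1 point per gene above background in 3 of 3 samples. The 46 ribosomal protein genes (red) sit mostly at the bright end, where SDs are small for all genes, and the members with the largest SDs include Rpl12, Rps25 and Rpl14 at intermediate signal and Rps9 and Rps10 among the bright genes.

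The comparison by landmark set replicate 3 against replicates 1 and 2. Most members were lower in replicate 3. Its aligned signal was below both others for 31 of 46 genes (67.4%), where 30.4% of all genes showed this, and above both for 4 of 46 (8.70%), where 25.3% did. With the samples aligned on the median of all probe sets it was below both for 26 of 46 (56.5%), where 25.5% of all genes were. The median log2 difference of replicate 3 from the mean of the others was -0.20 for members and -0.01 for all genes, so the size was small. The limma test called 0 of 29065 probe sets at an adjusted p under 0.05, a share of 0%, and 0 of the 94 member probe sets it included. Unadjusted p was under 0.05 for 604 probe sets, or 2.08%, and for 0 member probe sets. With 1 residual degree of freedom and 1 sample on one side the values below are descriptions, and landmark, sex and any other feature of replicate 3 cannot be told apart.

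The counts were then taken within the bands of level. In the middle band 13 of 15 members were lowest in replicate 3, against 15.9% of other genes of that level, with median log2 differences of -0.43 for members and 0.11 for the others. In the bright band it was 12 of 16 members, against 13.8% of other genes, with medians of -0.12 and 0.10. In the dim band it was 6 of 15, against 31.4% of other genes, whose median signal was lower than that of members. Members thus stood lower in replicate 3 mostly in the middle and bright bands, where few other genes did. Counts by subunit were alike, at 14 of 22 genes for the small subunit and 17 of 24 for the large one. In the same way, replicate 2 was the highest for 18 of 46 members (39.1%), where it was for 19.2% of all genes, and replicate 1 for 24 of 46 (52.2%), where it was for 55.5%. Between replicates 2 and 1 the median log2 difference was -0.07 (replicate 2 minus replicate 1) for members and -0.32 for all genes. Members went both ways there, with 19 higher and 27 lower in replicate 2, and 5 of 46 (10.9%) differed over 2-fold, where 12.3% of all genes did.

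**Figure D2:**
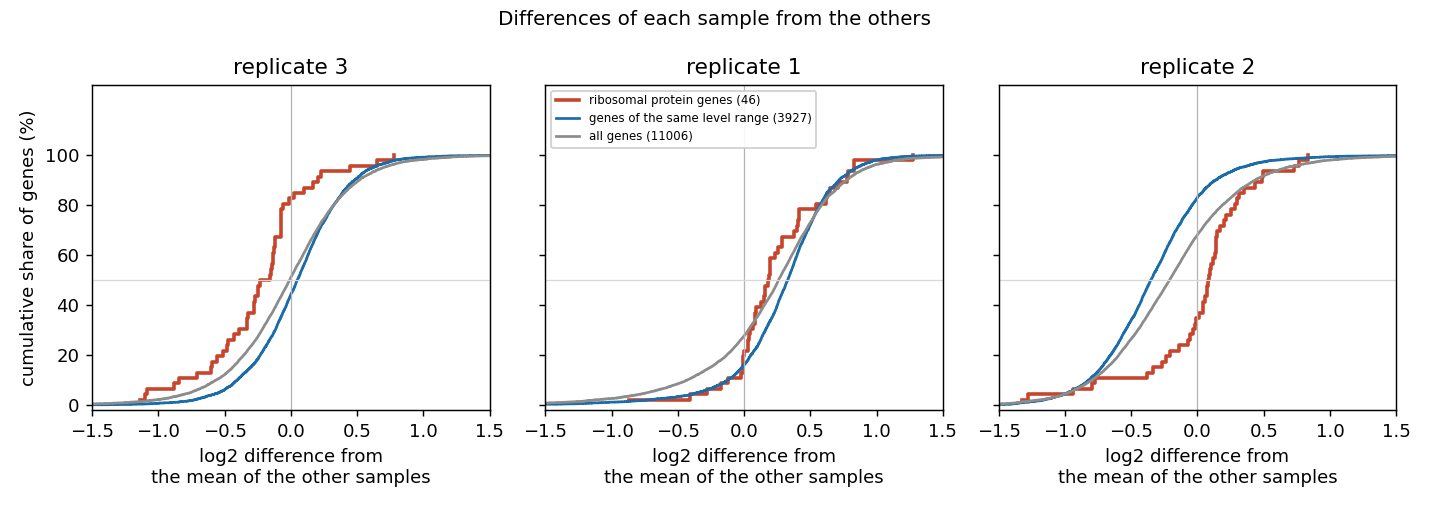
Cumulative share of genes (vertical axis, percent) by the log2 difference between 1 sample and the average of the rest (horizontal axis), with 1 panel per sample. Ribosomal protein genes (red) lie to the left of all genes (grey) and of genes in the same level range (blue) in replicate 3, where their median is -0.20, and to the right of both in replicate 2, where it is 0.08 but -0.23 when samples are aligned on all probe sets.

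Taking the brightest probe set of each gene, the 3 largest differences were in Rps10, Rps15 and Rps9. Rps10, a protein of the head of the small subunit, had a signal of 18637 in replicate 3, against 39998 and 43593 in replicates 1 and 2, and was lower by 2.20-fold. Rps15, which sits in the head near the decoding site, had 5252 in replicate 3, against 11812 and 11129, and was lower by 2.14-fold. Rps9, which lies at the mRNA entry channel, had 14217, against 24869 and 38070, and was lower by 2.13-fold. For each of these genes replicate 3 was clear of both other samples. They were the 3 of 46 members that differed over 2-fold, a share of 6.52%, where 4% of all genes did. Other probe sets gave smaller differences for some of them. The other one of Rps15 was lower by 1.35-fold, and those of Rps9 were lower by 1.17-fold and higher by 1.32-fold in replicate 3. By subunit the median log2 difference was -0.14 for the small subunit and -0.24 for the large one. For the brightest probe sets of the 3 genes, limma log2 differences ± SE were -1.14 ± 0.60, -1.10 ± 0.61 and -1.09 ± 0.62, and none had an adjusted p under 0.05.

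Next came Rps24, a small subunit protein, with 10840 in replicate 3, against 16510 and 25155 (1.85-fold lower), and Rpl37a, a zinc finger protein of the large subunit, with 15117, against 25439 and 30131 (1.80-fold lower). Rpl41, a very short and basic peptide at the interface of the subunits, had 19770, against 36866 and 29227 (1.63-fold lower). Rpl38, whose loss in mice alters translation of Hox mRNAs and the pattern of the axial skeleton, had 29343 in replicate 3, against 37824 and 46068 (1.40-fold lower). In all of these replicate 3 was again the lowest. The 5 members that stood highest in replicate 3 relative to the others had replicate 2 or 1 as the low sample, as that choice requires. Rpl12, at the base of the stalk, had 3470 in replicate 3, against 2926 and 1448. Rpl39, an X-linked protein of the exit tunnel, had 617, against 455 and 351. Rps25, a small subunit protein used by some viral internal ribosome entry sites, had 7022, against 7890 and 3491, so replicate 2 stood apart there. Rps6, the substrate of S6 kinase, had 12241, against 14409 and 7875, likewise with replicate 2 lowest, and Rpl13a had 57548, against 43349 and 59630. Rpl13a depended on the probe set, since replicate 3 was lowest on 2 of its 4, with log2 differences between -0.18 and 0.26.

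**Figure D3:**
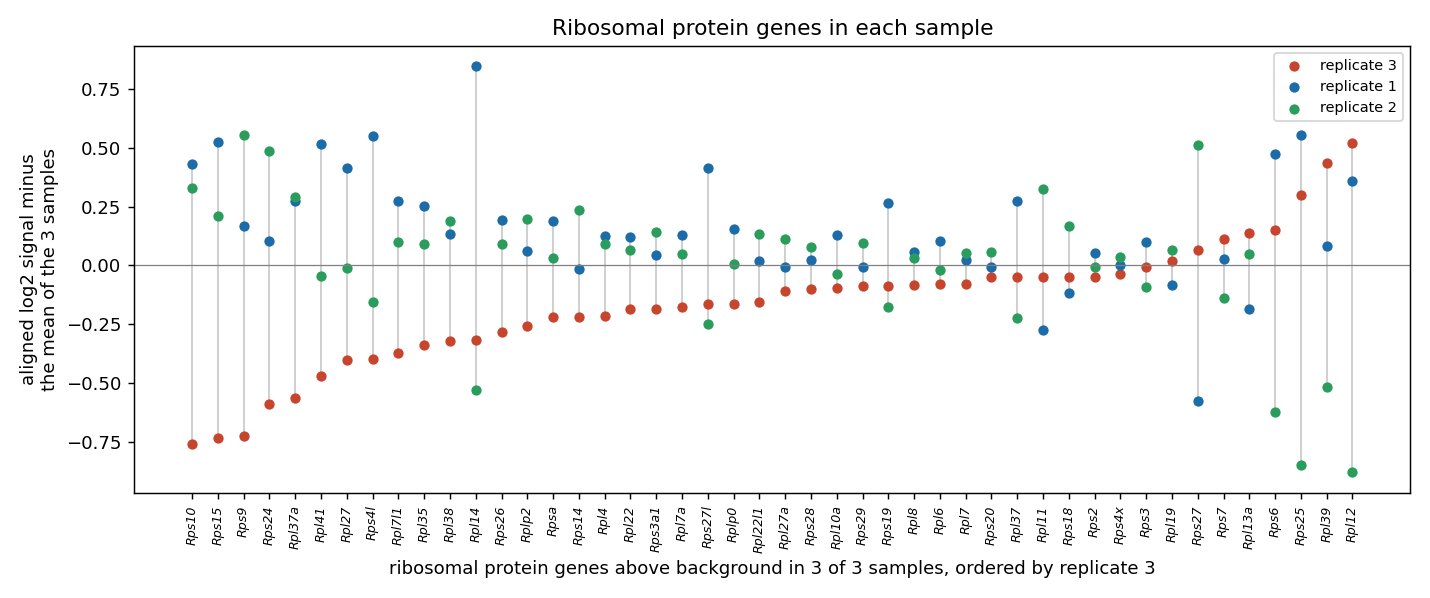
Aligned log2 signal minus the mean of the 3 samples (vertical axis) for the 46 ribosomal protein genes above background in 3 of 3 samples, ordered from the lowest to the highest in replicate 3. Replicate 3 (red) is below both other samples in 31 genes, most clearly in Rps10, Rps15 and Rps9 at the left, while replicate 2 (green) is the lowest in several genes at the right, among them Rps6, Rps25, Rpl39 and Rpl12.

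Sequence around the transcription start is shown because the start carries the pyrimidine stretch common to the family. It is given for the 5 members that were lowest in replicate 3 and for 5 with small SDs among those with a RefSeq window. Rps20, Rpl7, Rpl8 and Rps29 are not shown, though their SDs (0.055, 0.069, 0.075 and 0.092) were below that of Rpl6 (0.094). RefSeq windows (GRCm38.p6) matched 43 of the 49 genes. Each line runs 5′ to 3′ from 40 bases before the annotated start to 20 bases from it onward. Capitals mark the longest run of C or T of at least 5 bases that overlaps or follows the 10 bases before the start.
Rps10, chr17:27635225-27635284, minus strand: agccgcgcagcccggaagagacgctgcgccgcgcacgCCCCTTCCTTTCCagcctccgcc
Rps15, chr10:80292391-80292450, plus strand: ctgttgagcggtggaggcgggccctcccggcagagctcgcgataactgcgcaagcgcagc
Rps9, chr7:3704001-3704060, plus strand: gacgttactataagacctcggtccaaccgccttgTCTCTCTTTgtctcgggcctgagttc
Rps24, chr14:24490638-24490697, plus strand: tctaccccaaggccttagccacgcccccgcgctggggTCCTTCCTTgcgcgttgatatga
Rpl37a, chr1:72711220-72711279, plus strand: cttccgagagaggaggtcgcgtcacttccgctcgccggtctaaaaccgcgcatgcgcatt
Rps4x, chrX:102189372-102189431, minus strand: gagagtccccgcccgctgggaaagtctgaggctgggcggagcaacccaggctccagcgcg
Rps2, chr17:24720023-24720082, plus strand: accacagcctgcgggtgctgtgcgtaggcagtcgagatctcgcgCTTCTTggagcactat
Rpl19, chr11:98026670-98026729, plus strand: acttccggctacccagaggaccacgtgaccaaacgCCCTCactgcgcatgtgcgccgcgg
Rps28, chr17:33824543-33824602, minus strand: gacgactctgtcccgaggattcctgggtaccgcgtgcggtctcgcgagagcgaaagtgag
Rpl6, chr5:121204461-121204520, plus strand: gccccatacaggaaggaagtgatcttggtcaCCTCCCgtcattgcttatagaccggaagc
The first 5 are those lowest in replicate 3. Of these, Rps10 (13 bases), Rps9 and Rps24 (9 bases each) carry a long run, and Rps15 and Rpl37a carry none of 5 bases near the start, though runs of at least 5 such bases lie further upstream. Among the 5 steady genes shown the longest runs were of 6 bases, in Rps2 and Rpl6. Annotated starts can lie some bases from the start used in this tissue, so a missing run says only that none overlaps or follows the 10 bases before the annotated start.

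Over all windows, counted from 250 bases before to 50 after the start, a run of at least 8 C or T bases within 10 before to 20 after the start was present in 17 of 51 member windows (33.3%), against 11.2% of 32851 windows in the whole table. The ETS core CCGGAAG, searched on both strands, was present in 21 member windows (41.2%), against 8.86%. The YY1 core AAGATGGC, also on both strands, was present in 4 (7.84%), against 2.75%, and TATAAA in 6 (11.8%), against 13.6%. The ETS and YY1 motifs can share bases, and they did so in 0 member windows. The whole table also holds non-coding genes.

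Rplp0, the base protein of the stalk that recruits elongation factors, had 44721 in replicate 3, against 52549 and 55405 in replicates 1 and 2. Rplp2, 1 of the acidic proteins it anchors, had 41547, against 48859 and 62807. Both were lowest in replicate 3, by 1.18-fold and 1.31-fold. Rpsa, a small subunit protein also known as a laminin receptor, had 37066, against 46343 and 48564 (1.26-fold lower). Rpl11, which with 5S RNA binds Mdm2 when ribosome assembly fails, had 28502, against 22957 and 40731. Here replicate 1 was the lowest, and replicate 3 lay between the others.

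Of the genes known from mouse mutants, Rps19 and Rps20 cause dark skin when mutated and Rpl27a a sooty foot phenotype. Rps19 had 18137 in replicate 3, against 21817 and 18780. Rps20 had 64201, against 62313 and 76319. Rpl27a had 2835, against 2863 and 3642. None of the 3 differed by more than 1.12-fold between replicate 3 and the mean of the others after alignment.

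Paralogs of core genes made up 6 members, and 4 of these were above background in 3 of 3 samples. Rpl22l1, a paralog whose RNA is known in mice to be held down by Rpl22, had 6326 in replicate 3, against 6715 and 8512. Its parent Rpl22 had 46605, against 54325 and 61207. The log2 difference in replicate 3 was -0.23 for Rpl22l1 and -0.28 for Rpl22, but the other probe sets of Rpl22 gave -0.49 and -0.03. Rps27l, which p53 induces in human cells, had 9422, against 13271 and 9777, with replicate 1 apart from the others. Rps4l, an autosomal relative of Rps4x, had 3129, against 5690 and 4077, a log2 difference of -0.60 where Rps4x had -0.06. Rpl7l1, which resembles Rpl7, had 8794, against 12967 and 13466, a log2 difference of -0.56 where Rpl7 had -0.12. The order of Rpl7l1 and Rpl7 depended on the probe set, since the other probe sets gave 0.23 and -0.50 for Rpl7l1 and -0.47 and -1.05 for Rpl7.

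How far a level depends on the probe set could be seen in the 24 genes with 2 or more. The median range between the brightest and dimmest probe set of a gene was 24.4-fold, and in 13 genes it exceeded 16-fold. Probe sets of Rps4x averaged 69235 and 19.5, and the 6 of Rps18 ran from 57149 down to 34.1. For Rps3 (59438 and 67.1) and Rpsa (43991 and 90.2) the dimmest probe set was likewise below background. In contrast the 3 of Rps28, the 3 of Rps27l, the 3 of Rpl27 and both of Rps14 lay within 2-fold. When probe sets below background were left out, the median range was 1.98 on the log2 scale.

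**Figure D4:**
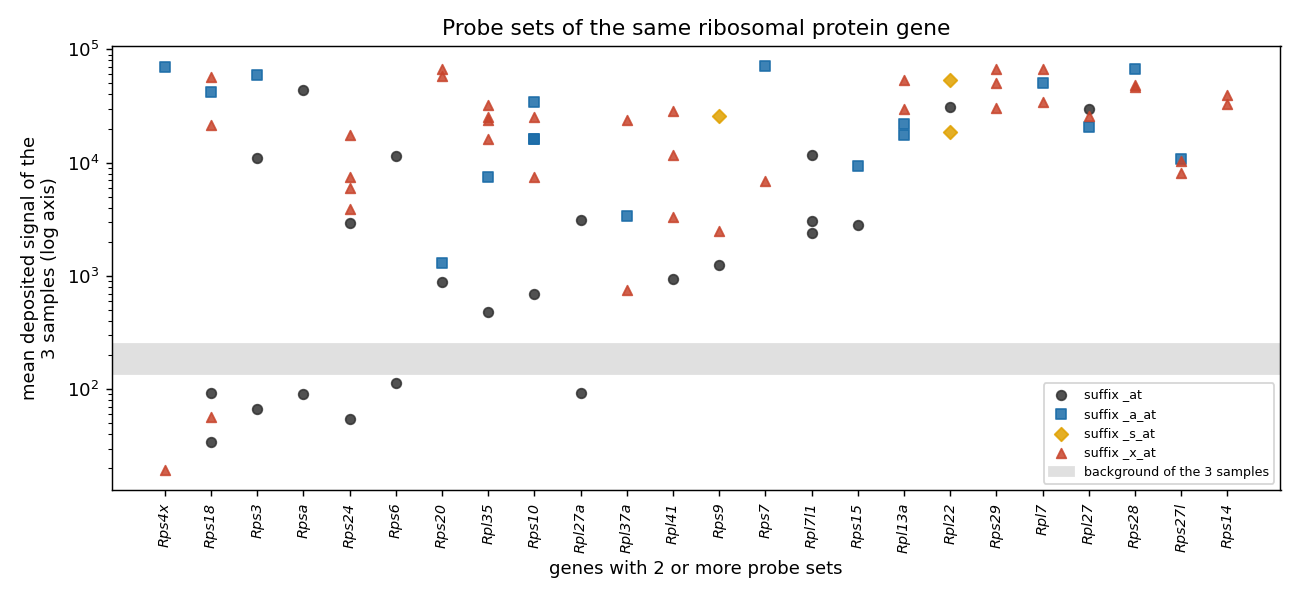
Mean deposited signal of the 3 samples (log axis) for each probe set of the 24 ribosomal protein genes with 2 or more, ordered by the range within the gene. Marker shape and colour give the suffix of the probe set, the grey band spans the backgrounds of the 3 samples, and the widest ranges, in Rps4x and Rps18, reach from below background to the brightest signals on the array.

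The lower signal in replicate 3 was followed across probe sets of the same gene, which share a transcript and are not independent. Of 20 genes with 2 or more probe sets above background, replicate 3 was lowest on every such probe set in 7, on some in 11 and on none in 2. The same split was not taken over all genes, so these counts only describe the members. Of the 6 probe sets of Rps10, 5 had replicate 3 lowest, with log2 differences between -2.06 and -0.08 over all 6. In Rpl37a it was 3 of 3 (log2 differences between -1.69 and -0.85), in Rps15 2 of 2, in Rpl35 5 of 6, in Rps9 2 of 3 and in Rpl41 2 of 4. Each of these counts, like that of Rps10, includes the gene's brightest probe set, which already had replicate 3 lowest. Only the other probe sets of a gene add to that. The dim _at probe set of Rpl35 went the other way, with 646 in replicate 3, against 395 and 415. So did an _at probe set of Rps24 (3930, against 2496 and 2403), while the other 4 above background, the brightest among them, had replicate 3 lowest. Affymetrix gives the suffix _x_at to probe sets with probes that also match other sequences, and _at to those without. Replicate 3 was lowest in 31 of 38 member probe sets with _x_at (81.6%) and in 10 of 24 with _at (41.7%), against 33.4% and 19.8% of other probe sets with those suffixes in the members' range of level. With _a_at, given where all probes match transcripts of 1 gene, it was 21 of 28 (75%), against 27.4%, and with _s_at 2 of 3. Over the 93 member probe sets it was lowest in 64 (68.8%). The 101 probe sets above background that name a ribosomal protein gene and other symbols, which are no members, had a median log2 difference of -0.18, with replicate 3 lowest in 59.4%.

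Genes that work with the ribosome were set against the 30.4% of all genes that were lowest in replicate 3. That share varied with level, at 31.4%, 15.9% and 13.8% of other genes in the dim, middle and bright bands of the members. By median signal the elongation and TOP list (38643) lay in the middle band. The mitochondrial ribosome (2737) and biogenesis (3846) lists lay in the dim one. Of elongation and initiation factors and other mRNAs with a TOP tract, 14 were measured and 14 were above background, with replicate 3 lowest in 7 (50%) and a median log2 difference of -0.11. Fau, which encodes the small subunit protein S30 fused to a ubiquitin-like domain, had 5480 in replicate 3, against 8301 and 9290. The nascent chain factor Naca had 11464, against 17401 and 25336, and the elongation factor Eef2 31642, against 42744 and 41970. Eef1a1, the main elongation factor, had 88186, against 73798 and 96445, and so lay between the others. Hnrnpa1, an RNA-binding protein, and the initiation factor Eif3e went the other way, with 33216 and 47950 in replicate 3, log2 differences of 0.48 and 0.23. Of 76 mitochondrial ribosomal protein genes, which serve a separate ribosome, all 76 were above background. Replicate 3 was lowest in 39 of them (51.3%), with a median log2 difference of -0.18. Of 20 ribosome biogenesis genes replicate 3 was lowest in 8 (40%), with a median of -0.12, among them the rRNA methyltransferase Fbl (5767 in replicate 3, against 8031 and 12373). The polymerase I factor Rrn3 was highest there, with 4134 in replicate 3, against 3407 and 2699, and Tsr1 had a log2 difference of 0.25. Of the marker genes above background, 4 of 4 for liver, 4 of 4 for skeletal muscle and 5 of 6 for red blood cells were lowest in replicate 3 too. For the tubercle itself it was 3 of 6 (50%), with a median log2 difference of -0.09. In bulk tissue fewer cells of a type and less RNA per cell cannot be told apart, and the part of neighbouring tissue in the ribosomal protein values was not tested. Control probe sets for 18S rRNA read 60294 at the 3′ end in replicate 3, against 13587 and 78759 in replicates 1 and 2, and the 3′ to 5′ ratio of the actin controls was 4.42, against 7.38 and 2.21. On both measures replicate 3 lay between the others. The 3′ to 5′ ratio of the Gapdh controls was 14.1 in replicate 3, against 21.5 and 14.9, so that replicate 3 was the lowest there. The part of RNA quality in the ribosomal protein values was not tested.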

How the data were processed

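The deposited values are linear intensities, 1 for each probe set in each sample. The authors obtained them with GCOS, the scanner software, per the submitters' processing notes, which give no version here. RNA was amplified in 2 rounds, per the labels' protocols. With the top and bottom 2% removed, each sample averaged 1500.0, which shows a global scaling before deposit. The number of arrays limits precision. The p-values of the landmark test rest on the spread between replicates 1 and 2, moderated over the tested probe sets, and assume that replicate 3 varies alike.

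Of 45101 probe sets 64 controls were set aside; 34945 had 1 symbol, from a platform annotation checked against RefSeq (GRCm38.p6), where 0 symbols changed. Every column was used. Background was the 95th percentile of 81 sensory receptor probe sets per sample (135.8, 253.1 and 197 in replicates 1, 2 and 3). Signals below 1 were set to 1, log2 transformed and aligned on the median of probe sets above background in 3 of 3 samples. Signals are printed as deposited; differences, folds and log2 SDs are after alignment. The genes of the same level range lie between the 10th and 90th percentiles of the members' levels.

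The landmark was tested with limma 3.58.1 (lmFit and eBayes, two-sided, Benjamini-Hochberg) on the 29065 probe sets that passed background in 1 or more samples, in R 4.3.3; the rest used Python 3.11.15. The limma fit and the difference measure were tested on simulated data. Named genes were paralogs with their parents, the stalk, Rpsa, Rpl11, Fau, X-linked members, the mouse mutant genes, the 6 highest and lowest by signal, and those with the largest and smallest SDs, landmark differences and probe set ranges, of which the text gives those bearing on a result. Naca, Eef2, Eef1a1, Hnrnpa1, Eif3e, Fbl, Rrn3, Tsr1 and Hbb-y were named after their values were seen, as were single probe sets. Members and lists were chosen with earlier results of these data known. Alternatives were the background, the probe set per gene, the alignment, a pseudocount, the filter, a variance trend and each replicate left out.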

Additional observations from a re-analysis of the deposited data

How the results depend on the processing

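Over 13 results and 80 alternative values, 66 stayed within the spread between samples or, for counts and SDs, within 1.5 times, and 14 moved. The median log2 difference of members in replicate 3 stayed negative throughout, at -0.16 to -0.30. The number of members lowest there was 29 of 46 with the median over probe sets and 24 of 41 with only _at and _a_at probe sets. It was 31 of 46 without alignment and 33 of 46 after quantile normalization. The shares of all genes were 35.0% without alignment and 33.8% after quantile normalization, against 30.4% in the main setting. For the choices of probe set that share was not taken. With replicate 1 or 2 left out the number of members lowest in replicate 3 was 35 of 47 and 38 of 46, counted against the 1 sample that remained. In the main alignment replicate 3 was below replicate 2 in 4394 of 11006 genes and below replicate 1 in 7171. Among genes of the same level range it was below them in 1048 and 2774 of 3927. Some of these alternatives, on the choice of probe set and the alignment of that count, were chosen after seeing the data. Aligning on the median of all probe sets gave 26 of 46, raised the median SD to 0.348 and moved the median differences to 0.58 in replicate 1 and -0.23 in replicate 2, where all genes had 0.66 and -0.52, so the sign in replicate 2 depends on alignment; the cause was not tested. The median signal over all 49 genes was 34076 (small subunit 34367, large subunit 31485). With the median over the probe sets of a gene it was 20054 (small subunit 16263), and with only _at and _a_at probe sets 20724 (small subunit 15543), by construction lower. With only probe sets above background the range within a gene was 1.98 (log2), since the dimmest are left out. The landmark contrast called 1 probe set when limited to those above background in every sample and 86 when aligned on all probe sets, with 0 members in either; the cause was not tested. Leaving out each replicate in turn gave median signals over the 49 genes of 29972 to 37769 (small subunit 31831 to 41795, large subunit 29470 to 34899), median SDs of 0.129 to 0.233 and probe set ranges of 4.26 to 4.85 (log2), the lowest SD without replicate 3 (there with background and genes set anew). The number of arrays, the choice of probe set and the alignment all limit what can be read from these values. No paired analysis was possible because no label pairs the samples. Without replicate 1 or 2 the landmark contrast has no residual degree of freedom and was not run.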
